A study of Mus musculus with 18 samples.

Results

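Aquaporins are membrane channels, and 8 of them were followed here through liver, epididymal white adipose tissue (eWAT) and quadriceps muscle of mice kept on a high-salt diet (HSD) or on the control diet (CON). The members were *Aqp1*, *Aqp3*, *Aqp4*, *Aqp5*, *Aqp7*, *Aqp8*, *Aqp9* and *Aqp11*, found by name among 21899 genes, of which 12 are genes of the aquaporin family. The set was chosen by a measured value, the lower FPKM of *Aqp4* in HSD than in CON muscle, so the diet difference of the members in muscle, and all comparisons of *Aqp4* that use its muscle level, are given as a description and without a test. All mice were male wild-type C57BL/6 animals, 18 weeks old at sampling. HSD mice had been fed a salt-rich diet with saline as drinking water for 12 weeks, and CON mice were not. Each of the 6 groups held 3 libraries of total RNA, 1 per mouse, from 4 CON and 4 HSD mice in all, and 4 of these mice gave all 3 tissues.

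Classical aquaporins pass water along an osmotic gradient, and the aquaglyceroporins *Aqp3*, *Aqp7* and *Aqp9* also pass glycerol. *Aqp7* lets glycerol leave the adipocyte when triglyceride is broken down, and *Aqp9* takes glycerol into the hepatocyte, where it serves gluconeogenesis. *Aqp4* is the water channel of fast muscle fibres and of astrocytes, where the dystrophin complex holds it at the membrane. *Aqp1* lines capillaries and red cell membranes, *Aqp8* is found in hepatocytes, *Aqp11* lies in the endoplasmic reticulum and *Aqp5* belongs to glands. In bulk tissue, fewer cells of a type and less RNA per cell cannot be told apart.

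The stretches of DNA before a start site of 4 members are shown first, as examples of channels of liver and eWAT: *Aqp7* had its highest level in eWAT, *Aqp8* and *Aqp9* in liver, and *Aqp11* was found at a low level in both. They are RefSeq promoter sequences of mouse build GRCm38.p6, given 5′ to 3′ on the strand of the gene and trimmed to bases outside annotated exons. The *Aqp9* stretch lies before a RefSeq start site inside the gene, in an intron of the GENCODE M21 model, which begins farther upstream, and the other stretches lie before the annotated gene. Capitals mark CG, the dinucleotide that carries DNA methylation and that reads the same on both strands.
Aqp7, chr4:41048140-41048386, minus strand: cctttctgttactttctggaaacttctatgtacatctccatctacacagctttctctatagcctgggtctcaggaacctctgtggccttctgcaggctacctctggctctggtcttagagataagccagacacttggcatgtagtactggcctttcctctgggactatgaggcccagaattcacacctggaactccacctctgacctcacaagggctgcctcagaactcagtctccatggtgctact
Aqp9, chr9:71162634-71162883, minus strand: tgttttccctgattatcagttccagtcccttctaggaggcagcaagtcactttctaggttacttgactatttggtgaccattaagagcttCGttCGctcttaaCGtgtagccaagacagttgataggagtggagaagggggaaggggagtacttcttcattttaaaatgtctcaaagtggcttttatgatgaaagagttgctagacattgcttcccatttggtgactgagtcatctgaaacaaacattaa
Aqp8, chr7:123462044-123462290, plus strand: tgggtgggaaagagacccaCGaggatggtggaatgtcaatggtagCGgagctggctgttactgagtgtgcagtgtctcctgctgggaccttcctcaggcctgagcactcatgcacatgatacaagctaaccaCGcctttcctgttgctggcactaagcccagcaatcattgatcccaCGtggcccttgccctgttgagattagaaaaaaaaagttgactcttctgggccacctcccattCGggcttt
Aqp11, chr7:97738290-97738497, minus strand: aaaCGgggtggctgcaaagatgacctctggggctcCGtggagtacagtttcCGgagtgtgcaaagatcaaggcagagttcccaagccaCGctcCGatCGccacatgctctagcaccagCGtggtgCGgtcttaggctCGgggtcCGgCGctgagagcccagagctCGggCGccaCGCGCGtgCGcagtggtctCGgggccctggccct
Over the 250 bases before the RefSeq start, *Aqp7* held 0 CG at the first of its start sites, *Aqp9* held 3 at the start site shown, *Aqp8* held 5 and *Aqp11* held 23. The median of 32851 mouse promoters of that length was 6, and 92.1% of them held at least 1. As few CG as before *Aqp7* were found in 7.87% of promoters, whereas 88.0% held as many as *Aqp11* or fewer. A promoter entry was present for 7 of the 8 members. Methylation and factor binding were not measured, so these counts describe the sequence only.

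Some libraries stood apart from the rest of their group. In eWAT, the HSD library HS3W held 20094 summed FPKM of 16 epididymal epithelium markers, with all 16 at 1 FPKM or more, against 1.11 to 13.7 in the other eWAT libraries. FPKM are fragments divided by the length of a gene and by the library total. Its adipocyte markers summed to 7406 FPKM, against 17052 to 23850 elsewhere in eWAT. In liver, the CON library CON16L held 2434 FPKM of fast muscle fibre markers, against at most 4.09 in the other liver libraries. Its erythroid markers summed to 5636 FPKM, against 237 to 843. The other tissues of the same mouse were also the highest of their tissue in these markers, CON16W of eWAT at 5671 FPKM against 243 to 744 and CON16M of muscle at 966 FPKM against 124 to 224. The share of fragments from mitochondrially encoded genes ran from 15.4% to 60.8% in liver, from 3.52% to 5.11% in eWAT and from 11.3% to 16.5% in muscle. The hepatocyte, adipocyte and fast fibre markers were present in every library of their own tissue, at 14283 FPKM or more in liver, 7406 or more in eWAT and 37063 or more in muscle. The sequencing statistics given by the study do not list CON16L and HS5L of liver and HS5W of eWAT, without a stated reason. Library totals recovered from the values ran from 7628071 to 16637489 fragments.

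Each tissue had its own set of channels. In CON mice, *Aqp1* was the most abundant member in eWAT at 298 ± 4.47 FPKM (SD, n = 3) and in muscle at 141 ± 21.1 FPKM, and *Aqp8* in liver at 52.2 ± 33.3 FPKM. These are levels per gene length, so members can be set side by side. *Aqp7* followed in eWAT at 67.1 ± 3.32 FPKM, and *Aqp9* followed in liver at 34.1 ± 16.5 FPKM. In muscle, *Aqp4* at 7.35 ± 0.408 FPKM and *Aqp7* at 4.36 ± 0.639 FPKM came next after *Aqp1*. The highest level of any other member in a muscle library was 0.226 FPKM.

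**Figure D1:**
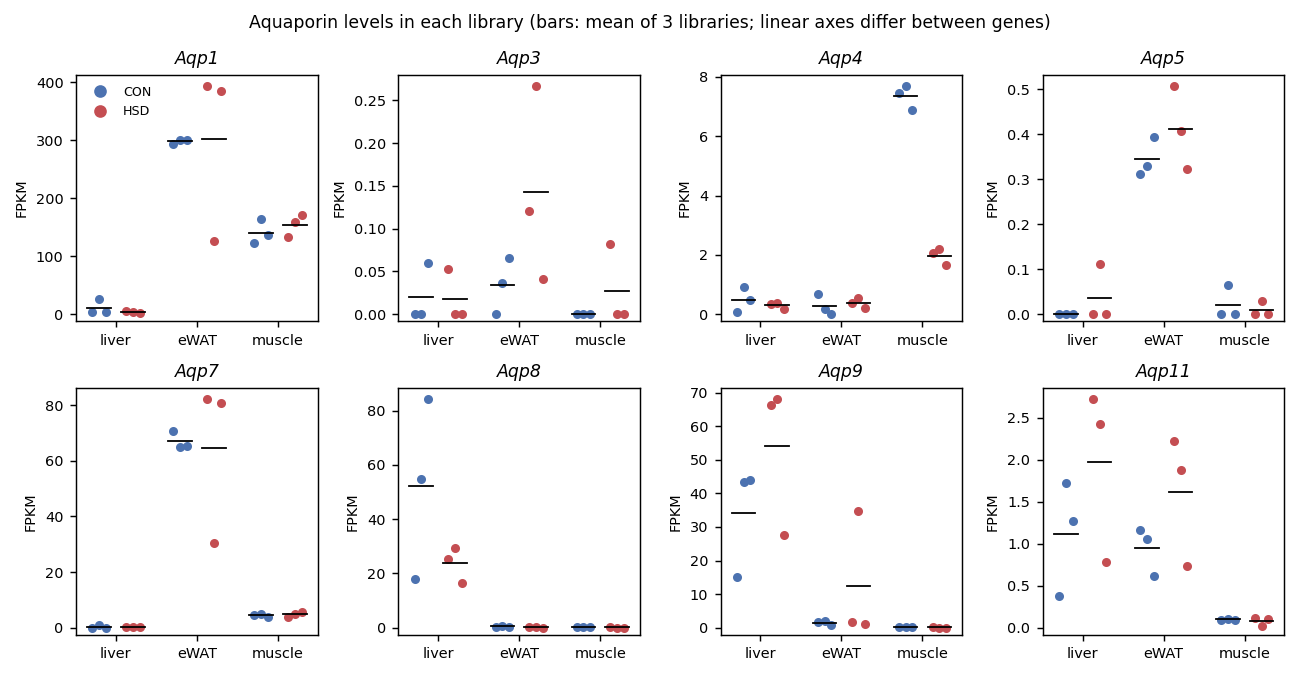
FPKM of the 8 aquaporins in each library by tissue, with CON in blue, HSD in red and a bar at the mean of 3 libraries. The FPKM axes are linear, start near 0 and differ between genes; *Aqp4* in muscle lies between 6.90 and 7.69 in CON and between 1.66 and 2.19 in HSD, and *Aqp9* in eWAT reaches 34.6 in 1 HSD library.

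The order of the tissues was compared between neighbours by limma on log2(FPKM + 0.5), over the 9 CON libraries and again over the 9 HSD libraries. Libraries of 1 mouse were treated as independent in these fits, though 4 of the mice gave all 3 tissues. A difference was called when its log2 size reached 1 and its p, adjusted by Benjamini-Hochberg, was under 0.05. By this rule 69.4% of 12637 genes differed between eWAT and liver in CON mice, 50.1% between muscle and liver and 54.9% between eWAT and muscle. The shares in HSD mice were 68.4%, 45.1% and 58.7% of 13255 genes. The median gene was 1.36 higher in eWAT than in liver in CON mice and 1.41 higher in HSD mice, and 0.93 and 1.12 higher in eWAT than in muscle, so a member's step is to be read against these shifts. Median-ratio scaling took the shifts between eWAT and liver to 0.017 and 0.095, with 41.8% and 44.0% of genes called. In CON mice it also turned a split of 7851 genes called higher and 917 lower in eWAT into 2713 and 2566. With quantile normalization 40.8% and 36.5% were called. Members high in a single tissue pass the filter on low values through that tissue, so the calls below only place them. *Aqp1* was higher in muscle than in liver by 4.09 on the log2 scale in CON mice (limma adjusted p = 0.000231). Its eWAT level was above its muscle level by 1.09 in CON (adjusted p = 0.126) and by 0.80 in HSD mice (adjusted p = 0.138), so that these neighbours did not pass the test. Median-ratio scaling brought these differences to 0.07 and to -0.37, so the order of eWAT and muscle for *Aqp1* is not set. Without the liver library CON16L, which enters the same fit, the CON difference of 1.09 had an adjusted p of 0.000328. Without the eWAT library HS3W, the HSD difference was 1.34 (adjusted p = 0.00481), and both differences then passed.

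For *Aqp7*, the order was eWAT, muscle, liver in both diets. The step from eWAT to muscle was 3.80 in CON mice (adjusted p = 1.28e-05) and 3.51 in HSD mice (adjusted p = 3.67e-05). *Aqp8* stood 5.64 higher in liver than in eWAT in CON mice, while its levels in eWAT and muscle did not exceed 0.668 FPKM. It passed the filter through liver alone, so no p is given for this step. *Aqp9* fell from liver to eWAT by a step of 4.05 in CON mice (adjusted p = 1.04e-05) and from eWAT to muscle by 1.69 (adjusted p = 0.00383), the second step being 0.73 and under the size of a call with quantile normalization. In HSD mice, the *Aqp9* libraries of liver and eWAT overlapped, since HS3W at 34.6 FPKM lay above the liver library HS5L at 27.8 FPKM. For *Aqp11*, liver and eWAT were neighbours whose difference on the deposited scale did not pass, at 0.08 in CON mice (adjusted p = 0.814) and 0.20 in HSD mice (adjusted p = 0.656), with liver above eWAT. This rests on the scale: liver was 1.12 and 1.39 above eWAT after median-ratio scaling (adjusted p = 0.0149 and 0.0107) and 1.42 and 1.76 above it after quantile normalization (adjusted p = 0.00136 and 0.00227), and these differences passed. The *Aqp11* level in eWAT was above that in muscle by 1.26 in CON (adjusted p = 0.00514) and 1.79 in HSD mice (adjusted p = 0.00303), but in HSD mice only by 0.50 after quantile normalization (adjusted p = 0.249), where it no longer passed. *Aqp4* was highest in muscle, 3.10 above liver in CON mice and in HSD mice 1.52 above eWAT, without a test.

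In muscle, *Aqp4* was the member that chose the set. Its gene, ENSMUSG00000024411, lies on the minus strand of chromosome 18. The CON libraries CON16M, CON71M and CON72M had 7.46, 7.69 and 6.90 FPKM, from 481 to 616 fragments. The HSD libraries HS2M, HS3M and HS5M had 2.05, 2.19 and 1.66 FPKM, from 128 to 177 fragments. Every HSD library thus lay below every CON library, and the spread within each diet was small beside the gap. The mean went from 7.35 ± 0.408 to 1.96 ± 0.276 FPKM, a CON level 3.74 times the HSD level. On the log2(FPKM + 0.5) scale, which understates changes of low genes, the difference was -1.68 with a standard error of 0.13. This contrast is the one used to choose the gene, so no p is given. Across muscle, 0.323% of 10834 genes were called by diet, 0.222% as lower in HSD (24 genes, against 11 higher). The split was 14 lower and 13 higher after median-ratio scaling, and 47 lower and 11 higher with mitochondrially encoded genes left out. By range alone, HSD lay below CON without overlap for 15.6%.

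The levels of *Aqp1* and *Aqp7*, the other channels of muscle past the filter on low values, overlapped between the diets. *Aqp1*, the capillary water channel, had 122, 164 and 136 FPKM in CON and 132, 159 and 170 FPKM in HSD muscle. *Aqp7* had 4.62, 4.84 and 3.64 FPKM in CON and 3.69, 5.01 and 5.62 FPKM in HSD muscle. The differences were 0.13 (95% interval -0.20 to 0.47) and 0.11 (95% interval -0.27 to 0.48) on the log2 scale, again without a test. The remaining 5 members did not reach a mean of 0.5 FPKM in muscle. *Aqp9* counted 4 to 5 fragments in CON libraries and 1 to 2 in HSD libraries, and *Aqp8* counted 2 to 4 and 0 to 2. The FPKM of both were lower in every HSD library, on too few fragments to read a difference.

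The fibre types and the dystrophin complex were looked at beside *Aqp4*. Fast fibre markers summed to 37063 to 41908 FPKM in CON and 43171 to 47745 FPKM in HSD muscle. The markers of slow and 2A fibres summed to 454 to 769 FPKM in CON and 290 to 310 FPKM in HSD, so that these groups did not overlap either. Per 1000 FPKM of fast fibre markers, *Aqp4* came to 0.165 to 0.208 FPKM in CON and 0.0347 to 0.0482 FPKM in HSD. Per 1000 FPKM of slow and 2A markers it was 10.004 to 16.4 and 5.35 to 7.55 FPKM. The ratio to either list was lower in every HSD library than in every CON library. Both ratios carry the *Aqp4* level that chose the set, so this is a description only. Whether fibre composition has a part in the *Aqp4* values was not tested.

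Among the myosin heavy chains, *Myh2* of 2A fibres fell by 1.06 on the log2 scale (limma adjusted p = 0.0394) and *Myh1* of 2X fibres fell by 1.01 (adjusted p = 0.0453). *Myh2* had 262, 330 and 259 FPKM in CON and 175, 132 and 108 FPKM in HSD libraries. *Myh1* went from 664 to 865 FPKM in CON to 312 to 484 FPKM in HSD. *Myh4*, the chain of the fastest fibres and by far the most abundant, had 7434 to 9954 FPKM in CON and 7823 to 11150 FPKM in HSD, with a difference of 0.14 (adjusted p = 0.749). *Myh7* of slow fibres had 13.3 to 29.2 FPKM in CON and 3.78 to 9.71 FPKM in HSD muscle (difference -1.40, adjusted p = 0.0958). Of 7 slow and 2A markers 1 was called and 7 were lower, with a median difference of -1.02 against -0.06 over all genes. Of 7 fast markers 1 was called, as lower, and their median was 0.21. The calls of *Myh2* and *Myh1* rest on most of the libraries: with any 1 library other than HS2M left out, neither passed. Under median-ratio scaling, quantile normalization, no filter on low values or 1 fit of all 18 libraries neither passed, with an adjusted p of 0.0612 for *Myh2* under the first of these. With the replicate number as a block, 3 slow and 2A markers were called, *Tnni1* (adjusted p = 0.0191) among them, in a fit that called 0.498% of all muscle genes.

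The dystrophin complex links the cytoskeleton of the fibre to the matrix outside it. Of its 15 genes 14 were tested in muscle and 0 were called, 12 of them lower and 2 higher, with 2 at an unadjusted p under 0.05, as were 16.3% of all muscle genes. Their median difference was -0.17, against -0.06 over all genes. *Dmd*, dystrophin, had 6.32 to 7.80 FPKM in CON and 5.38 to 8.44 FPKM in HSD (difference -0.09, adjusted p = 0.825). The differences of *Sntb1* and *Sntb2*, the beta-syntrophins, were -0.30 (adjusted p = 0.532) and -0.32 (adjusted p = 0.364). *Sspn*, sarcospan, is named after its values were seen: it had 18.9 to 20.1 FPKM in CON and 10.8 to 14.6 FPKM in HSD muscle (difference -0.62, adjusted p = 0.0682). With the replicate number as a block its adjusted p was 0.0306, below the size that the call asks for.

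**Figure D2:**
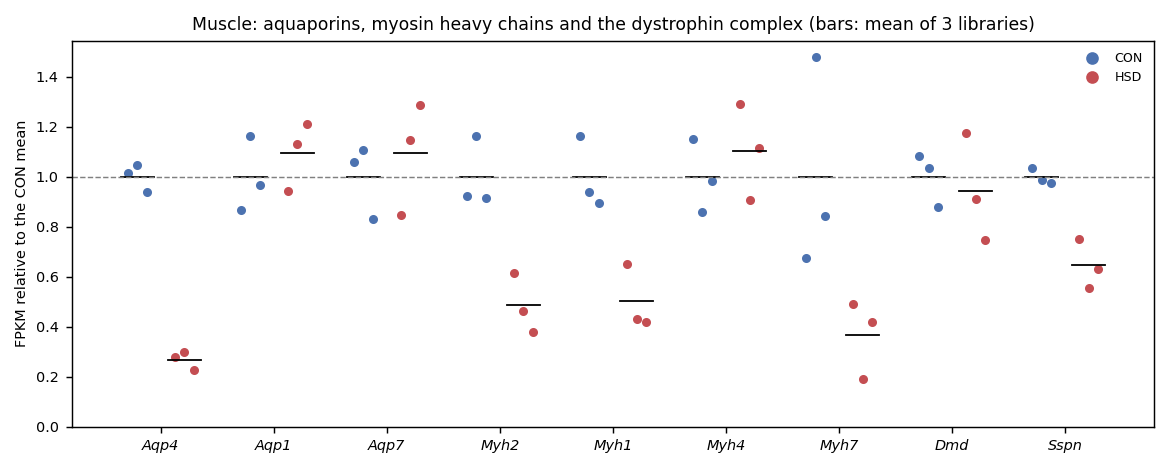
FPKM in muscle relative to the CON mean of each gene, 1 point per library with CON in blue and HSD in red, bars at the mean of 3 libraries and the dashed line at the CON mean. The HSD points of *Aqp4* lie far below 1 and apart from CON, those of *Aqp1*, *Aqp7*, *Myh4* and *Dmd* lie on both sides of 1, and those of *Myh2*, *Myh1*, *Myh7* and *Sspn* lie below the CON points.

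In eWAT, the fat depot in which the abundant channels are *Aqp1* and *Aqp7*, 0 of 4 tested members were called by diet, with 0.0% of 13740 genes called in all. By an unadjusted p under 0.05 there were 2298 genes and no member among them, and limma voom on recovered fragments called 0 genes as well. The diets overlapped for all 4 members, while they did not for 28.6% of eWAT genes. *Aqp7*, the glycerol exit of the adipocyte (ENSMUSG00000028427, chr4:41033074-41048139 in GRCm38), had 70.9, 65.1 and 65.2 FPKM in the CON libraries CON16W, CON71W and CON72W. Its HSD libraries HS2W, HS3W and HS5W had 82.2, 30.5 and 80.9 FPKM. *Aqp1* (ENSMUSG00000004655, chr6:55336432-55348555) had 293, 301 and 300 FPKM in CON and 394, 126 and 384 FPKM in HSD libraries. For both genes the CON libraries lay close together, 2 HSD libraries lay above them and HS3W lay far below. Over all 6 libraries, the differences were -0.19 with a standard error of 0.39 for *Aqp7* (adjusted p = 0.804) and -0.16 with a standard error of 0.46 for *Aqp1* (adjusted p = 0.861).

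Without HS3W, the direction of both turned. *Aqp1* was then 0.38 higher in HSD (adjusted p = 0.0387) and *Aqp7* 0.28 higher (adjusted p = 0.0718), neither at the size of a call. In that fit 7.43% of 13245 genes had an adjusted p under 0.05, 1.21% were called, and 26.2% had both HSD libraries above the CON libraries, as these members had. Adipocyte markers summed to 17052 to 18178 FPKM in CON, to 22602 and 23850 FPKM in HS2W and HS5W, and to 7406 FPKM in HS3W. Per 1000 FPKM of these markers, *Aqp7* was 3.78 to 3.90 FPKM in CON, 3.64 and 3.39 FPKM in HS2W and HS5W, and 4.12 FPKM in HS3W. The range over all eWAT libraries was thus 3.39 to 4.12, with HS2W and HS5W below the CON libraries and HS3W above them. Per 1000 FPKM of endothelial markers, *Aqp1* was 533 to 621 FPKM in CON and 585 to 685 FPKM in HSD eWAT, with HS3W at 589. The part of tissue composition in these differences was not tested.

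*Aqp9* in eWAT turned on a single library. It had 1.78, 1.83 and 0.769 FPKM in CON and 1.77, 34.6 and 0.959 FPKM in HSD libraries, the value of 34.6 being HS3W, with 1765 fragments. The difference over all libraries was 1.37 with a standard error of 1.21 (adjusted p = 0.549), and without HS3W it was -0.05 (adjusted p = 0.938). The same library carries the 20094 FPKM of epididymal markers, and the epididymis is an organ known to express *Aqp9*. Hepatocyte transcripts were found in eWAT too, with *Alb* at 53.9 to 167 FPKM in CON and 3.30 to 7.85 FPKM in HSD libraries. The part of either tissue in the *Aqp9* values was not tested. *Aqp11* had 1.17, 1.05 and 0.619 FPKM in CON and 2.22, 1.88 and 0.730 FPKM in HSD eWAT (difference 0.49 with a standard error of 0.36, adjusted p = 0.503), and the diets overlapped through HS5W and CON72W.

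**Figure D3:**
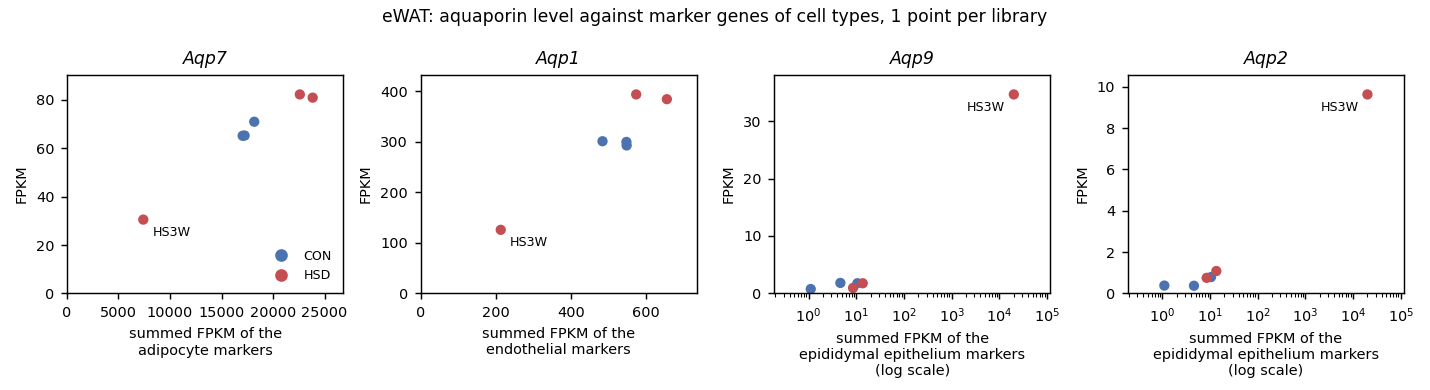
FPKM of *Aqp7*, *Aqp1*, *Aqp9* and *Aqp2* in the eWAT libraries against the summed FPKM of adipocyte, endothelial and epididymal epithelium markers, with CON in blue, HSD in red and a log scale for the epididymal markers. *Aqp7* and *Aqp1* are lowest, and *Aqp9* and *Aqp2* highest, in HS3W, the library with 20094 FPKM of epididymal markers.

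In liver, *Aqp8*, *Aqp9*, *Aqp11* and *Aqp1* were tested and 0 of these 4 were called by diet, with 0.0% of 10317 genes called in all, 592 at an unadjusted p under 0.05 and 0 called by limma voom on recovered fragments. The shared adjusted p of the members was 0.764. Their diets overlapped for all 4, while 12.1% of liver genes had diets that did not. *Aqp8* (ENSMUSG00000030762, chr7:123462291-123468004), a water channel of hepatocytes, had 17.7, 54.7 and 84.2 FPKM in the CON libraries CON14L, CON16L and CON72L. The HSD libraries HS2L, HS4L and HS5L had 25.2, 29.4 and 16.4 FPKM. CON14L thus fell among the HSD libraries, while the other two CON libraries lay above all of them. The difference was -0.91 with a standard error of 0.59 (95% interval -2.28 to 0.47). *Aqp9* (ENSMUSG00000032204, chr9:71110659-71168682), the glycerol entry of the hepatocyte, had 15.1, 43.3 and 44.0 FPKM in CON and 66.4, 68.1 and 27.8 FPKM in HSD libraries. Its difference was 0.70 with a standard error of 0.56 (95% interval -0.61 to 2.01). *Aqp11* (ENSMUSG00000042797, chr7:97724006-97738289), the channel of the endoplasmic reticulum, had 0.376, 1.72 and 1.27 FPKM in CON and 2.72, 2.42 and 0.783 FPKM in HSD liver. Its difference was 0.61 with a standard error of 0.47 (95% interval -0.49 to 1.70).

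The lowest library of each diet was the same for *Aqp8*, *Aqp9* and *Aqp11*, CON14L and HS5L. These libraries also had the lowest hepatocyte markers, 14283 and 30960 FPKM against 51935 to 68844 FPKM in the others, and the highest mitochondrial shares, 60.8% and 44.4%. Per 1000 FPKM of hepatocyte markers, *Aqp9* ranged from 0.629 to 1.06 FPKM in CON and from 0.897 to 0.991 FPKM in HSD liver. *Aqp11* came to 0.0244 to 0.0263 FPKM in CON and 0.0253 to 0.0403 FPKM in HSD, with HS5L among the CON libraries. *Aqp8* was 0.794 to 1.62 FPKM in CON and 0.374 to 0.528 FPKM in HSD on this scale, and the diets did not overlap. How many liver genes are apart on this scale was not counted, and 11 of 12 hepatocyte markers were themselves higher in HSD. An exact permutation test of 3 against 3 libraries cannot give a p below 0.1, and none is given for these shares of marker levels. The part of the hepatocyte share and of RNA quality in the levels was not tested. With CON14L left out, the difference of *Aqp8* was -1.54, and with CON72L left out it was -0.43. *Aqp9* and *Aqp11* differed by 0.20 and 0.21 without CON14L and by 1.12 and 1.03 without HS5L. Under limma's arrayWeights, *Aqp8* was called (-1.65, adjusted p = 6.4e-05), in a fit that called 8.98% of liver genes.

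The levels of *Aqp8* and *Aqp9* were also set against each other within a library. The water channel *Aqp8* stood above the glycerol channel *Aqp9* in the 3 CON libraries, at 1.17, 1.26 and 1.92 times its FPKM in CON14L, CON16L and CON72L. In HS2L, HS4L and HS5L it stood below, at 0.380, 0.431 and 0.589 times. The libraries of the diets did not overlap in this ratio, which any scaling of a whole library leaves as it is. Of single liver genes 12.1% did not overlap, and the share over pairs of genes was not counted. The mean log2 ratio was 0.50 in CON and -1.12 in HSD liver. The ratio was chosen after its values had been seen and is given without a test, and neither gene was called by diet.

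*Aqp1* in liver again depended on a library. It had 3.59, 25.9 and 4.62 FPKM in CON and 5.88, 3.92 and 2.58 FPKM in HSD liver, the value of 25.9 being CON16L, which holds the muscle and erythroid markers. Endothelial markers summed to 37.5 FPKM there and to 14.1 to 18.0 FPKM in the other liver libraries. In eWAT, where the level of *Aqp1* was far higher than in liver, CON16W of the same mouse had 293 FPKM, beside 301 and 300 FPKM in the other CON libraries. The part of blood, vessels or muscle in these values was not tested. The difference in liver over all 6 libraries was -0.89 with a standard error of 0.69, and without CON16L it was -0.05. Over the 4 liver libraries listed in the study's sequencing statistics, *Aqp1* was 0.22 higher in HSD (adjusted p = 0.661). In the same 4 libraries, *Aqp9* was 1.36 higher (adjusted p = 0.132), *Aqp11* 1.30 higher (adjusted p = 0.0734) and *Aqp8* 0.50 lower (adjusted p = 0.627), with 0.351% of 9970 genes called and no member among them.

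**Figure D4:**
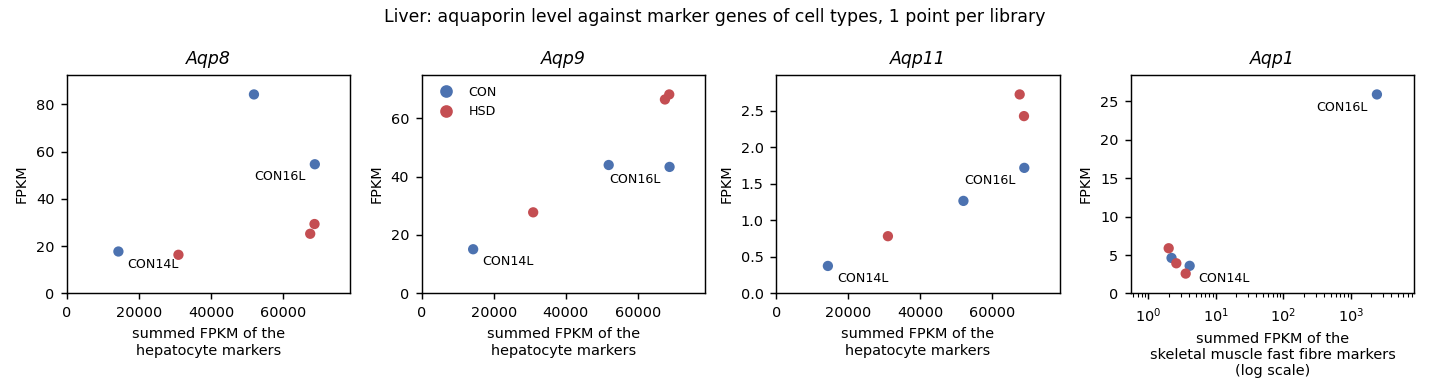
FPKM of *Aqp8*, *Aqp9* and *Aqp11* in the liver libraries against the summed FPKM of hepatocyte markers, and of *Aqp1* against fast muscle fibre markers on a log scale, with CON in blue and HSD in red. *Aqp9* and *Aqp11* are lowest in CON14L, the library with 14283 FPKM of hepatocyte markers, and *Aqp1* is highest in CON16L, with 2434 FPKM of muscle markers.

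Whether the diet effect differed between liver and eWAT was tested as an interaction over the 12 libraries of both tissues. Of 5 tested members 0 differed at an adjusted p under 0.05, as did 0.0% of 13252 genes, with 1154 at an unadjusted p under 0.05 and 3 called by limma voom. *Aqp7* and *Aqp8* passed the filter through 1 tissue only, with medians of 0.034 FPKM in liver and 0.27 FPKM in eWAT. Their values thus say little on a difference of the diet effects. For *Aqp1* the difference of the diet effects was 0.73 (95% interval -1.32 to 2.78), for *Aqp9* 0.67 (95% interval -2.37 to 3.72) and for *Aqp11* -0.12 (95% interval -1.50 to 1.27). The intervals are wide enough to hold several-fold differences in either direction.

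**Figure D5:**
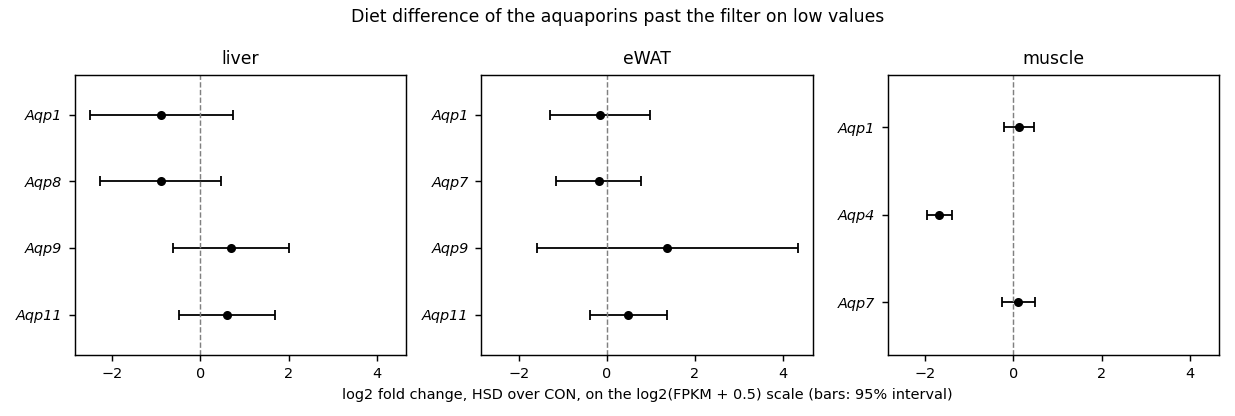
Log2 fold change of HSD over CON on the log2(FPKM + 0.5) scale for the members past the filter in each tissue, with bars for the 95% interval. The intervals in liver and eWAT cross 0, those of *Aqp1* and *Aqp7* in muscle are narrow and cross 0, and *Aqp4* in muscle lies at -1.68. The bar of *Aqp4* belongs to the contrast that chose the set and is no test.

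The glycerol genes around *Aqp7* and *Aqp9* were read in the same fits. Of 15 listed genes for glycerol release and use 14 were in the table, and 0 were called in liver, eWAT or muscle. In liver 12 of 13 tested genes were higher in HSD, with a median of 0.33 against 0.13 over all genes, and so were 11 of 12 hepatocyte markers, with a median of 0.97. Without CON14L 7 of the 13 glycerol genes were higher, and with mitochondrially encoded genes left out 5, with a median of -0.22 against -0.37 over all genes. In eWAT 11 of 14 were lower, with a median of -0.31 against 0.08, and so were 6 of 8 adipocyte markers, with a median of -0.30. Without HS3W 6 of the 14 were lower and 8 higher, with a median of 0.030 against 0.043. Whether the hepatocyte or adipocyte share has a part in these counts was not tested. The lipases that release fatty acids and glycerol, *Pnpla2*, *Lipe* and *Mgll*, and the lipase activator *Abhd5* differed in eWAT by -0.02, -0.44, -0.23 and -0.14, with adjusted p from 0.572 to 0.985. Without HS3W these differences were 0.49, 0.052, -0.0028 and 0.23, with adjusted p from 0.0563 to 0.988. *Pnpla2* had 552 to 657 FPKM in CON libraries, 890 and 803 FPKM in HS2W and HS5W and 297 FPKM in HS3W. Glycerol kinase, *Gk*, and *Pck1* of gluconeogenesis are named after their values were seen. *Gk* had 10.1 to 10.6 FPKM in CON and 12.2 to 24.7 FPKM in HSD liver (difference 0.82), and *Pck1* had 840 to 1079 FPKM in CON and 1844 to 2201 FPKM in HSD liver (difference 1.11). Both had the adjusted p of 0.764. For these genes the diets did not overlap, as for 8.62% of liver genes with HSD above CON. In muscle, *G0s2*, an inhibitor of the lipase of *Pnpla2*, differed by -1.39 (adjusted p = 0.0792) and passed with the replicate number as a block (adjusted p = 0.00273). Of 9 receptors and regulators known to act on *Aqp7* or *Aqp9*, among them *Insr*, *Foxo1*, *Pparg* and *Ppara*, 0 were called in any tissue.

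The lowest members stayed near the limit of detection. *Aqp3* (chr4:41092722-41098183), an aquaglyceroporin of epithelia, did not exceed 0.267 FPKM in any library, the 6 fragments of HS3W. In CON muscle it had 0 fragments in all libraries, which allows up to 0.147 FPKM in the shallowest of them, 3 fragments being the limit for a count of 0. *Aqp5* (chr15:99590782-99594829), the gland channel, was found in all eWAT libraries at 0.312 to 0.508 FPKM, from 11 to 18 fragments, with means of 0.345 ± 0.0426 FPKM in CON and 0.413 ± 0.0922 FPKM in HSD. In liver and muscle it had at most 3 fragments in a library. These members did not reach the filter and were not tested.

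Of the family members outside the set, *Mip*, *Aqp6* and *Aqp12* never exceeded 3 fragments in a library, and *Aqp12* had 0 in all. *Aqp2*, the vasopressin-regulated channel of the kidney collecting duct, had 0.372 to 0.791 FPKM in CON eWAT and 0.754, 1.08 and 9.63 FPKM in HSD eWAT, the highest being HS3W. Its difference was 1.45 with a standard error of 0.81 (adjusted p = 0.406).

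Genes with a profile like that of a member were found by the root mean square difference of log2(FPKM + 0.5), after centring each gene, over 18 libraries and 13067 genes. The nearest gene to *Aqp4* was *Itgb6* (difference 0.44), followed by *Atcay* and by *Chrna1*, a subunit of the muscle acetylcholine receptor. For *Aqp1* it was *Ccl11* (0.29), for *Aqp7* *Mcam* (0.33), for *Aqp8* *Cyp4a12b* (0.44), for *Aqp9* *Faah* (0.58) and for *Aqp11* *Tmbim6* (0.26). *Aqp9* thus had the largest of these differences. The added 0.5 understates changes of low genes such as *Aqp11*, so the differences do not rank closeness between members. The libraries share tissues and mice, and the likeness is a description of these libraries only.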

How the data were processed

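RNA of liver, eWAT and muscle had been extracted with TRIzol, depleted of rRNA and sequenced as stranded paired-end libraries. Reads were trimmed (cutadapt) and placed on mm10 (HISAT2) by the authors. The FPKM of each gene, which the study states came from cuffdiff on Ensembl gene models, were used as deposited. The labels also name mm9 and HTSeq 0.9.1. A batch correction is mentioned by the study, but not which values it changed, and the batches are not given. With union exon lengths of GENCODE M21, 97.4% of 18822 genes above 0 came out as whole fragments (within 0.02) in all 18 libraries, so fragment counts could be recovered.

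In each tissue, log2(FPKM + 0.5) of genes averaging at least 0.5 FPKM was modelled on diet by limma (3.58.1, under R 4.3.3), using eBayes with a trend. Tissues were compared over CON and over HSD libraries, and the interaction over liver and eWAT, with libraries of 1 mouse treated as independent. The mouse as a random block was an alternative for these fits. All p-values are two-sided. The script was tested on simulated data. Alternatives were pseudocounts of 0.1 and 1, no filter or a mean of at least 1 FPKM, median-ratio scaling, quantile normalization, mitochondrially encoded genes left out, eBayes without trend, arrayWeights, only the libraries listed in the study's sequencing statistics, all libraries in 1 fit, a block for the replicate number, leaving out single libraries and, added after the data were seen, limma voom on recovered fragments. Libraries of 1 diet and tissue came from different mice.

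The members and lists were chosen with earlier results of these data known. The marker and pathway lists hold 12 hepatocyte, 8 adipocyte, 7 fast fibre, 7 slow and 2A fibre, 9 endothelial, 7 erythroid and 16 epididymal genes, 15 genes of the dystrophin complex, 15 of glycerol use and 9 receptors. Genes named are the members, their family, the 3 nearest profiles at most, called genes of the lists and otherwise the first of each list, with exceptions stated. No animal was in both diets, so that pairing could come from replicate numbers alone. Deviations from the group mean correlated between same-numbered CON and HSD libraries with r of 0.383, 0.177 and 0.184 in muscle, so the blocked value stands beside muscle calls that it changes. In liver and eWAT not every pair correlated. Sequences are RefSeq promoters of GRCm38.p6, and gene positions are GENCODE M21. Python (3.11.15), numpy (2.4.6), pandas (2.3.3) and matplotlib (3.10.9) did the rest.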

Additional observations from a re-analysis of the deposited data

How the results depend on the processing

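Under arrayWeights, 1 liver member was called (*Aqp8*, -1.65), as was 1 member in the interaction of liver and eWAT, in fits that called 8.98% and 46.9% of all genes. In other alternatives 0 members were called in liver, eWAT and the interaction. *Aqp4* in muscle was -1.86 at a pseudocount of 0.1, -1.50 at a pseudocount of 1 and -1.91 under limma voom on recovered fragments, added after the data were seen. Without any 1 library it ran from -1.74 to -1.58. These values are of the contrast that chose the set and are a description only. *Aqp1* turned to 0.24 in liver under arrayWeights, to 0.22 over the liver libraries with sequencing statistics and to 0.34 in eWAT under arrayWeights, where *Aqp7* turned to 0.26. Without any 1 library, *Aqp1* in eWAT ran from -0.44 to 0.38, *Aqp7* from -0.43 to 0.28 and *Aqp9* from -0.054 to 2.24, the turn of each coming without HS3W. The difference of *Aqp11* between eWAT and liver ran, without any 1 library, from -0.47 to 0.20 in CON (0.20 over the libraries with sequencing statistics) and from -0.62 to 0.15 in HSD mice, but it passed at -1.12 and -1.39 under median-ratio scaling and at -1.42 and -1.76 under quantile normalization. That normalization also ended the call of *Aqp11* in HSD eWAT over muscle (0.50) and of *Aqp9* in CON eWAT over muscle (0.73). *Aqp1* in HSD eWAT against muscle turned to -0.37 under median-ratio scaling. The causes were not tested.

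The replicate number as a block changed no call of a member by diet in liver or eWAT or in the interaction, where 0 members were called. *Aqp4* in muscle was -1.68 with this block, as a description only. In muscle the block called 3 slow and 2A fibre markers where the fit without it called 1, and 1 glycerol gene where that fit called 0. Over all genes, calls ranged over the alternatives from 0 to 926 in liver, from 0 to 220 in eWAT, from 7 to 66 in muscle and from 0 to 6209 in the interaction, and from 5150 to 9289 between eWAT and liver of CON mice. Without mitochondrially encoded genes the median diet difference of all liver genes went from 0.13 to -0.37, and that of *Aqp9* to 0.15. Members under about 0.5 FPKM rest on few fragments, and intervals from FPKM cover 3 mice per group.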
